A study of Mus musculus with 19 samples.

Results

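Glycolysis and the pentose phosphate pathway are described here through 38 genes in myeloid cells of the mouse spleen: 4 transporters, 11 enzymes of upper glycolysis, 2 regulators of phosphofructokinase, 5 enzymes of lower glycolysis, 4 genes for the fate of pyruvate and glycerol 3-phosphate, 7 enzymes of the pentose phosphate pathway and 5 genes of the hypoxia pathway. The genes were chosen by name for what they encode, but with earlier results of these data known. All 38 were rows of a count table of 38887 genes. Of these, 37 were among the 12943 genes with enough counts to be tested, and the brain-type aldolase Aldoc was not. RNA was sequenced from PMN-MDSC, the neutrophil-like myeloid-derived suppressor cells, and from M-MDSC, their monocyte-like counterpart, of newborn and adult mice. The newborns were 7 days old and the adults 6 to 8 weeks old. The labels name no treatment, genotype or strain. The labels describe enrichment with CD11b beads and a sort for Ly6G+ cells with intermediate Ly6C as PMN-MDSC, and for Ly6G- cells with high Ly6C as M-MDSC. Their protocols also describe isolation of PMN-MDSC on columns with a Ly6G antibody. PMN-MDSC were represented by 6 adult and 5 newborn libraries, and M-MDSC by 3 adult and 5 newborn libraries.

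Glycolysis splits glucose into pyruvate in the cytosol and yields ATP without oxygen, and lactate dehydrogenase then turns pyruvate into lactate so that the pathway can run on. Neutrophils hold few mitochondria and are known to draw most of their ATP from glycolysis. The pentose phosphate pathway branches off at glucose 6-phosphate. Its oxidative arm makes NADPH, which the phagocyte oxidase uses to produce superoxide and glutathione reductase uses to keep glutathione reduced, and its non-oxidative arm returns sugars to glycolysis and supplies ribose for nucleotides. The transcription factor HIF-1, whose oxygen-sensitive subunit is encoded by Hif1a, is a known activator of glycolytic genes.

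Total counts were 827744 to 2965896 in the 10 libraries of batch 1 and 14026193 to 45135933 in the 9 libraries of batch 2, so that 3 counts corresponded to 0.990 to 3.29 CPM (the usual counts-per-million scale, with totals scaled by TMM) in batch 1 and to 0.0601 to 0.197 CPM in batch 2. Every group held libraries of both batches, although adult M-MDSC had 1 library in batch 2. Adult PMN-MDSC replicates 1 and 32, 2 and 33, and 3 and 34, and newborn PMN-MDSC replicates 2 and 37, and 3 and 38, resembled each other across the batches. Their gene-wise deviations correlated at r = 0.393 to 0.652, against -0.505 to 0.274 in the 10 other pairs, a correlation across genes, which are not independent replicates. Newborn PMN-MDSC had 2 libraries in batch 1, so its values came as mirror images, such as 0.393 and -0.393 for replicate 37. Its negative values thus add nothing to its positive ones. The resembling pairs may share RNA, and most counts of members called over the whole list are also given without their batch 1 libraries. Counts by role, of markers and of the further lists are given with all libraries only. Unless stated, each SD, SE and adjusted p below treats both libraries of a pair as separate. Nothing in the labels ties replicates to separate animals. All p-values therefore reflect the scatter among libraries alone, and that scatter may be technical. Genes of a neutrophil and a monocyte list mostly followed the sorts. Of 12 neutrophil genes 10 were lower in M-MDSC than in PMN-MDSC of adults, and 12 of 12 were lower in newborns. All 10 monocyte genes were higher in M-MDSC of adults, and 8 of 10 were higher in newborns. Ly6c2, a gene of the Ly6C antigen used in the sort, was among those not called in newborns, at 698 ± 250 CPM in M-MDSC and 442 ± 33.3 CPM in PMN-MDSC (SD, n = 5 and 5), a difference of 0.58 on the log2 scale (adjusted p = 0.0629). In adult PMN-MDSC Ly6c2 was at 40.4 ± 8.27 CPM (n = 6), so that it was higher by 3.48 in newborns (adjusted p = 1.53e-09). Markers of other cells differed too, with 11 of 12 B cell genes and 8 of 9 macrophage genes lower in M-MDSC at each age. No gene of either list was higher. Macrophage genes summed to 1461 to 3240 CPM in adult PMN-MDSC and 604 to 836 CPM in adult M-MDSC. Their newborn sums were 1422 to 1827 CPM for PMN-MDSC and 378 to 482 CPM for M-MDSC. The part of such cells in the differences between the cell types was not tested. Kdm5d, a Y-linked gene, had 0 counts in all 9 adult libraries and was at 1.28 to 20.2 CPM in newborn libraries, so sex and age cannot be told apart, and G6pdx and Pgk1 lie on the X chromosome.

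The start regions of the members are shown first because many of these genes are known targets of HIF-1, which binds hypoxia response elements with the core ACGTG or GCGTG. The windows are the 250 bases upstream of RefSeq transcript starts on build GRCm38.p6, and 36 of the 38 members had at least 1 window. Printed are the 3 largest rises and the 3 largest falls in newborn PMN-MDSC among windows with at most 30 bases in an annotated exon, and that of Ldha as a known HIF-1 target, all 5′ to 3′ on the gene's strand, with each core in capitals on whichever strand it reads. They are those of Adpgk at chr9:59291322-59291571 (plus strand), Ldhb at chr6:142507958-142508207 (minus), Hk3 at chr13:55021386-55021635 (minus) and Ldha at chr7:46845554-46845803 (plus), which rose, and those of Slc2a6 at chr2:27027999-27028248 (minus), Hif1a at chr12:73907617-73907866 (plus) and Pdk1 at chr2:71872974-71873223 (plus), which fell.
Adpgk: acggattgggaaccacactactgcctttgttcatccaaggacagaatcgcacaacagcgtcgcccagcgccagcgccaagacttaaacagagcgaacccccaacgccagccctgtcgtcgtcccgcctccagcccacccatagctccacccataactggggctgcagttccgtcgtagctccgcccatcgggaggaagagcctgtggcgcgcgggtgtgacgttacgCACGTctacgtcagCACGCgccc
Ldhb: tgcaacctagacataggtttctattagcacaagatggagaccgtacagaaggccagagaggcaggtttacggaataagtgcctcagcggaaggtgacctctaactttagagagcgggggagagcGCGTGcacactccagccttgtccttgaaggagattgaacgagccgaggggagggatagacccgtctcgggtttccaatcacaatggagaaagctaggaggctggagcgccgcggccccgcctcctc
Hk3: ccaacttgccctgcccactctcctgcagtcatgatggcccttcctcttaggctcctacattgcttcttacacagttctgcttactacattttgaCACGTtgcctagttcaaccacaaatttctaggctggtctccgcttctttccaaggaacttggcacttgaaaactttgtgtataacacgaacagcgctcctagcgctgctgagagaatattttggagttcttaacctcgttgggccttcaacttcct
Ldha: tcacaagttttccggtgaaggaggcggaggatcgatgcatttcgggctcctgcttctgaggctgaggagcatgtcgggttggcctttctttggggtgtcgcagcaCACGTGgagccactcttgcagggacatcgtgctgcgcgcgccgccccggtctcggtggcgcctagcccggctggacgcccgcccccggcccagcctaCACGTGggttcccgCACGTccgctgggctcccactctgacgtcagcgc
Slc2a6: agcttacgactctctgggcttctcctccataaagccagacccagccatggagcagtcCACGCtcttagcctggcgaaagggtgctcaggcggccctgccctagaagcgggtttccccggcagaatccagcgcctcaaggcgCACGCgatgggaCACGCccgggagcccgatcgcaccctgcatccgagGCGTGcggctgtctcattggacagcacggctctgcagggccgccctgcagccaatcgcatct
Hif1a: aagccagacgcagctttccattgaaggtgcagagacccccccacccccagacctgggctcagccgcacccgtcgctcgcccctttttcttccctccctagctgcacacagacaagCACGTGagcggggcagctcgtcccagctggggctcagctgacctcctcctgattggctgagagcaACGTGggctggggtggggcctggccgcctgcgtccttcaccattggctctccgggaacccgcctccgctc
Pdk1: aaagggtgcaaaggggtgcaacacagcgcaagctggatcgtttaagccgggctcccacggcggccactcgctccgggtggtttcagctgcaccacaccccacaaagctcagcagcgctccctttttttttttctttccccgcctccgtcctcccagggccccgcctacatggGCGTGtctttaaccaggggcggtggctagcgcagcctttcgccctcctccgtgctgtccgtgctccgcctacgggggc
At least 1 core stood in 41 of the 51 member windows (80.4%) and in 12679 of all 32851 windows (38.6%). Among members that rose in newborn PMN-MDSC it stood in 29 of 37 windows (78.4%), among those that fell in 5 of 6 (83.3%), and among those not called also in 5 of 6. No test was made between these sets. The palindrome CACGTG, which contains the core ACGTG on both strands and is also the E-box bound by Myc and the USF factors, stood in 5 member windows (9.80%) and in 6.02% of all windows. Member windows were also richer in CG pairs, which both cores contain, with a mean of 14.7 against 9.86 in all windows. Windows are not separate genes: the 51 came from 36 members and the 32851 from 27025 genes. Some windows of the same member, such as those of Eno1, overlap and share cores. For 42 of the 51 the bases that follow the window were found in an annotated transcript of the gene. A match is a run of letters and not a shown binding site.

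In PMN-MDSC most of both pathways was higher in newborns. Of the 37 tested members 26 rose and 5 fell (edgeR's quasi-likelihood test, Benjamini-Hochberg adjusted p under 0.05), and 6 were not called. Over all genes tested, 27.1% were called higher and 20.5% lower. The median log2 fold change of the members was 1.32, beside -0.05 for all genes. All 7 enzymes of the pentose phosphate pathway and all 5 of lower glycolysis rose, though Pgam1 among the 5 could not be measured reliably. Also higher were 8 of 10 tested genes of upper glycolysis and both PFKFB regulators. The transporters were divided, with 1 higher and 2 lower of 4, and of the 5 hypoxia genes 1 rose and 1 fell. Without the batch 1 partners of matched libraries 22 members were higher and 4 lower, within batch 1 23 and 4, and within batch 2 24 and 5. With upper-quartile scaling the split of all genes called higher and lower turned from 3514 and 2657 to 2756 and 3552, while the members' counts stayed at 22 to 27 higher and 4 to 5 lower under all 31 alternatives run. In M-MDSC fewer members were called: 19 rose and 3 fell, beside 15.9% and 14.3% of all genes, with a median of 0.68 against 0.01. In M-MDSC 19 members were higher within batch 1, 17 without the batch 1 partners, 9 within batch 2, where 1 adult library stood against 2 newborn libraries, and 11 in a fit of the M-MDSC libraries alone. Of the 19 members, Hk1, Gpi1, Aldoa, Pfkfb4, Eno1, Egln1, G6pdx and Tkt were not called in that fit. Those of the 19 not called within batch 2 were Hk1, Hk3, Gpi1, Aldoa, Tpi1, Pfkfb4, Gapdh, Pgk1, Eno1, Ldhb, G6pdx, Pgd and Tkt. The members higher within batch 2 were thus not all among the 19.

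**Figure D1:**
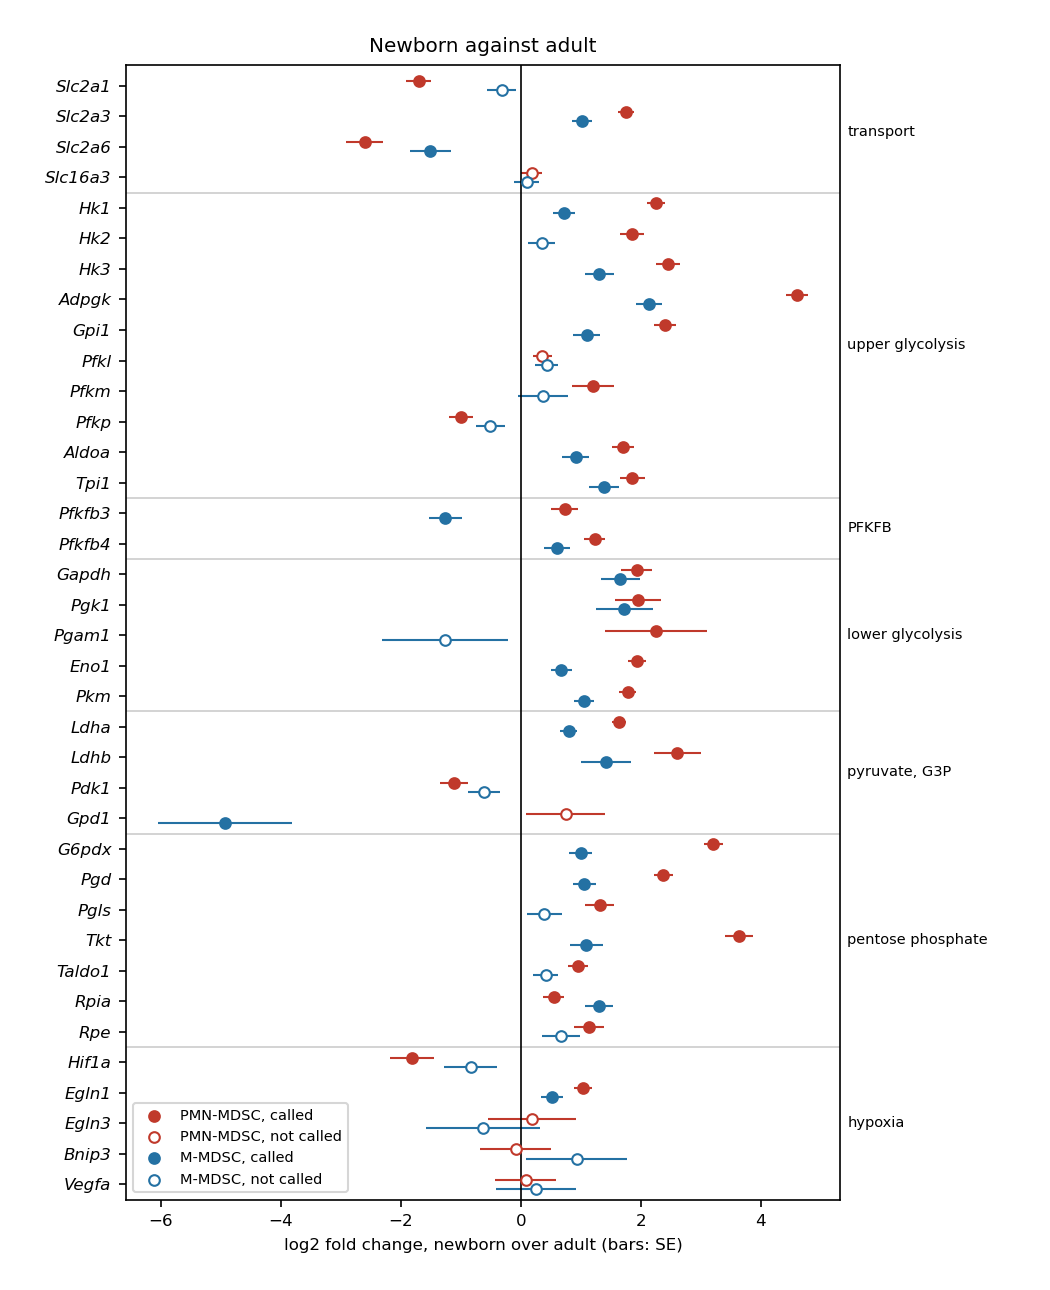
Log2 fold change of newborn over adult (x axis) for the 37 tested members (y axis, grouped by role) in PMN-MDSC (red) and M-MDSC (blue), with bars for the SE and filled points for an adjusted p under 0.05. All 7 pentose phosphate enzymes lie to the right of 0 in both cell types, whereas Slc2a6 lies to the left in both and Pfkfb3 on opposite sides.

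Markers of other cells and of cell division moved with age in the same libraries. In PMN-MDSC the summed level of 12 neutrophil genes was 10582 to 11968 CPM in adults and 80212 to 91641 CPM in newborns, with 9 of the 12 genes higher and 2 lower. B cell markers fell, 11 of 12 being lower, from 4295 to 6811 CPM in adults down to 625 to 962 CPM in newborns. Cell division genes rose, with 18 of 20 higher (564 to 791 CPM in adults, 2659 to 3368 CPM in newborns), and so did erythroid genes, with 11 of 14 higher (212 to 509 CPM and 3087 to 5600 CPM). In M-MDSC 19 of 20 cell division genes were higher (469 to 649 CPM in adults, 3949 to 4826 CPM in newborns), 11 of 12 B cell genes, 12 of 13 T cell genes and 7 of 9 macrophage genes were lower, and 7 of 12 neutrophil genes were higher (1643 to 2147 CPM and 3271 to 11801 CPM). B cell markers were at 1009 to 2483 CPM in adult and 171 to 288 CPM in newborn M-MDSC, and T cell markers at 185 to 489 CPM and 10.4 to 50.7 CPM. Eosinophil markers went from 63.7 to 123 CPM in adult to 255 to 681 CPM in newborn PMN-MDSC and from 10.4 to 24.9 CPM to 39.2 to 174 CPM in M-MDSC, with 3 of 6 genes higher and 1 lower in each. Epx, eosinophil peroxidase, had 0 counts in every adult library and was at 111 ± 50.5 CPM in newborn PMN-MDSC (SD, n = 5). Of 10 monocyte markers 2 were higher and 5 lower in newborn PMN-MDSC, and 4 were lower in newborn M-MDSC. Erythroid markers were spread over 51.1 to 2896 CPM in newborn M-MDSC, highest in replicate 2, and none of the 14 was called there. The part of these shifts in the changes of the members was not tested. In these bulk samples a lower share of a cell type and less RNA per cell cannot be told apart.

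The transporters behaved unlike one another. Slc2a3, the high-affinity glucose transporter GLUT3 of neutrophils and neurons, rose in PMN-MDSC from 344 to 479.6 CPM (median 432 CPM) in adults to 1395, 1426, 1474, 1533 and 1196 CPM in newborns, listed by replicate number (mean 418 ± 57.2 and 1405 ± 128 CPM, SD, n = 6 and 5). Every newborn library was above every adult one, with a difference of 1.76 ± 0.13 on the log2 scale (SE; adjusted p = 2.51e-09). In M-MDSC it was far lower, at 29.1, 35.7 and 28.3 CPM in adults and 54.3, 65.4, 78.3, 54.1 and 62.0 CPM in newborns, again without overlap, with a difference of 1.02 ± 0.17 on the log2 scale (SE; adjusted p = 1.39e-04).

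Slc2a1, the widespread basal glucose transporter GLUT1, went the other way in PMN-MDSC. It was at 98.6 to 169.9 CPM (median 116 CPM) in adults and at 44.9, 39.8, 40.4, 41.4 and 26.5 CPM in newborns, with a difference of -1.70 ± 0.21 on the log2 scale (SE; adjusted p = 1.99e-06) and no overlap. Adult replicates 1 and 32 were the highest adults and newborn replicate 39 the lowest newborn. In M-MDSC the groups overlapped, at 87.7, 42.3 and 56.6 CPM in adults and 65.9, 55.8, 37.5, 45.3 and 43.0 CPM in newborns, and the difference was not called at -0.32 ± 0.24 (adjusted p = 0.354).

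Slc2a6, which encodes the lysosomal hexose transporter GLUT6, had the largest fall of the members in PMN-MDSC. Adult libraries were at 84.0 to 197 CPM (median 131 CPM) and newborn libraries at 25.7, 25.9, 24.1, 25.5 and 11.0 CPM, with a difference of -2.60 ± 0.31 on the log2 scale (SE; adjusted p = 1.28e-06). In M-MDSC it fell from 211, 84.7 and 76.0 CPM to 47.4, 47.5, 36.6, 39.5 and 38.5 CPM, with a difference of -1.51 ± 0.34 on the log2 scale (SE; adjusted p = 0.00249). Within batch 2 alone the M-MDSC value of Slc2a6 was -0.90 (adjusted p = 0.244), and without adult replicate 1, the high library, it was -0.98 (adjusted p = 0.0382). The lactate exporter Slc16a3, known as MCT4, had a mean of 373 ± 62.2 CPM in adults and 415 ± 62.6 CPM in newborns for PMN-MDSC, and of 128 ± 12.3 and 138 ± 43.2 CPM in M-MDSC. Its age differences were 0.18 ± 0.17 and 0.10 ± 0.21 and neither was called.

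Adpgk, a kinase that phosphorylates glucose with ADP in place of ATP, had the largest rise of the tested members in each cell type. In PMN-MDSC its 89.7 to 122 CPM (median 110.4 CPM) of adults became 2451, 2705, 2620.0, 2909 and 2357 CPM in newborns (mean 107 ± 14.8 and 2608 ± 217 CPM), a 24.3-fold rise with a difference of 4.60 ± 0.18 on the log2 scale (SE; adjusted p = 2.16e-12). In M-MDSC it went from 40.0, 48.1 and 54.0 CPM to 129, 257, 248, 193 and 226 CPM, a 4.40-fold rise with a difference of 2.14 ± 0.21 on the log2 scale (SE; adjusted p = 6.42e-07). The lowest newborn library of either cell type was above all adult libraries of that type.

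The 3 hexokinases, which trap glucose as glucose 6-phosphate, all rose in PMN-MDSC. Hk3, the form found mostly in myeloid cells, was at 145 to 209 CPM (median 159 CPM) in adults and at 904, 1008, 874, 991 and 768 CPM in newborns, with a difference of 2.45 ± 0.20 on the log2 scale (SE; adjusted p = 9.04e-09). In M-MDSC it rose from 105, 94.6 and 122 CPM to 189, 408, 371, 177 and 210.5 CPM, with a difference of 1.31 ± 0.24 on the log2 scale (SE; adjusted p = 5.21e-04). Newborn replicates 2 and 3 were the high libraries there. They also had the highest sums of neutrophil genes, 11801 and 11025 CPM, against 3271 to 4792 CPM in the other 3. Replicate 2 was the highest newborn M-MDSC library for 22 of the 37 tested members, not for Hk3 alone. The part of the neutrophil genes in these levels was not tested.

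Hk1, the widespread hexokinase on the mitochondrial surface, was at 44.7 to 56.1 CPM (median 50.7 CPM) in adult and 234, 273, 228, 275 and 197 CPM in newborn PMN-MDSC, with a difference of 2.25 ± 0.15 on the log2 scale (SE; adjusted p = 7.26e-10). Its M-MDSC libraries were at 70.2, 89.2 and 75.4 CPM in adults and 121, 178, 152, 91.9 and 109 CPM in newborns, with a difference of 0.73 ± 0.18 on the log2 scale (SE; adjusted p = 0.00500). Hk2, the inducible hexokinase of muscle and activated cells, rose in PMN-MDSC from 40.0 to 73.4 CPM (median 67.4 CPM) to 204, 242, 206, 246 and 175 CPM, with a difference of 1.85 ± 0.19 on the log2 scale (SE; adjusted p = 2.69e-07). In M-MDSC the groups of Hk2 overlapped, at 235, 114 and 127 CPM and 224, 229.6, 216, 145 and 182 CPM, with a value of 0.35 ± 0.23 (adjusted p = 0.283). Adult replicate 1 stood high, and without it the Hk2 value was 0.67 (adjusted p = 0.0491).

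Gpi1, which turns glucose 6-phosphate into fructose 6-phosphate, rose in PMN-MDSC from 350.0 to 415 CPM (median 376 CPM) to 2032, 2082, 1972, 2049.7 and 1756 CPM, with a difference of 2.41 ± 0.19 on the log2 scale (SE; adjusted p = 5.22e-09). In M-MDSC it rose from 320.3, 443 and 489.5 CPM to 777, 1472, 1079, 587 and 655 CPM, with a difference of 1.10 ± 0.23 on the log2 scale (SE; adjusted p = 0.00123), and newborn replicate 2 was the highest. This call of Gpi1 was lost in a fit of the M-MDSC libraries alone, at 1.02 (adjusted p = 0.0731), and within batch 2, at 0.40 (0.193). The 3 phosphofructokinases, the committed step of glycolysis, did not move together. In PMN-MDSC the platelet form Pfkp fell from 83.2 ± 19.6 to 41.7 ± 5.67 CPM (adjusted p = 5.38e-04), the scarce muscle form Pfkm rose from 2.97 ± 0.927 to 6.99 ± 2.89 CPM (1.21 ± 0.35), and the liver form Pfkl was at 0.36 ± 0.16 (adjusted p = 0.0661). Pfkp was not called within batch 1, nor Pfkm within either batch. None of the 3 was called in M-MDSC. Single libraries decided some of these results: Pfkl reached 0.42 (adjusted p = 0.0478) in PMN-MDSC without newborn replicate 39 and 0.51 (adjusted p = 0.031) in M-MDSC without newborn replicate 3, and Pfkp reached -0.72 (adjusted p = 0.0321) in M-MDSC without adult replicate 3.

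Aldoa, the aldolase of most tissues, rose in PMN-MDSC from 285 to 343 CPM (median 311 CPM) to 1026, 1214, 977, 1069 and 807 CPM, with a difference of 1.70 ± 0.18 on the log2 scale (SE; adjusted p = 3.10e-07). In M-MDSC its libraries were at 319.7, 436 and 628 CPM in adults and 746, 1326, 917, 726 and 691 CPM in newborns, with a difference of 0.91 ± 0.22 on the log2 scale (SE; adjusted p = 0.00447). Tpi1, triose phosphate isomerase, was at 32.9 to 52.5 CPM (median 47.9 CPM) in adult and 139, 188, 151, 182 and 150.5 CPM in newborn PMN-MDSC, with a difference of 1.86 ± 0.20 on the log2 scale (SE; adjusted p = 4.26e-07). Newborn M-MDSC had the highest Tpi1 level of the 4 groups at 223, 394, 303, 229 and 308 CPM, above the 75.1, 96.3 and 160.1 CPM of adults, with a difference of 1.39 ± 0.25 on the log2 scale (SE; adjusted p = 3.71e-04). Aldoc stayed at 1.67 ± 0.478 CPM or less on average in every group and had 0 counts in 3 M-MDSC libraries.

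The PFKFB enzymes set the level of fructose 2,6-bisphosphate, the strongest activator of phosphofructokinase. Pfkfb3 was called in opposite directions in the 2 cell types. In PMN-MDSC it was at 81.6 to 146 CPM (median 96.7 CPM) in adults and 172, 176, 179, 197 and 166 CPM in newborns, with a difference of 0.73 ± 0.23 on the log2 scale (SE; adjusted p = 0.0127). In M-MDSC it fell, from 214, 78.0 and 90.1 CPM to 43.6, 62.2, 66.7, 45.1 and 44.4 CPM, with a difference of -1.26 ± 0.27 on the log2 scale (SE; adjusted p = 0.00188). Neither pair of groups overlapped. The rise in PMN-MDSC was not called under 6 of 31 alternatives, among them batch 1 alone at 0.68 (adjusted p = 0.196) and DESeq2 size factors at 0.55 (adjusted p = 0.0540). Adult M-MDSC replicate 1 and adult PMN-MDSC replicates 1 and 32 were the high adults, and without that M-MDSC library the fall of Pfkfb3 was -0.73 (adjusted p = 0.0319). Pfkfb4 rose in PMN-MDSC from 162 ± 20.2 to 379.7 ± 51.2 CPM, with a difference of 1.23 ± 0.17 on the log2 scale (SE; adjusted p = 1.04e-05). In M-MDSC its value was 0.61 ± 0.22 (adjusted p = 0.0393), a call lost under 17 of 31 alternatives, with 0.94 for Pfkfb4 without adult replicate 28 and 0.40 without adult replicate 1.

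Lower glycolysis, the ATP-yielding arm, rose in PMN-MDSC in all its members, of which Pgam1 is uncertain, as given below. Gapdh, which couples oxidation of glyceraldehyde 3-phosphate to phosphorylation, was at 145 to 273 CPM (median 250.5 CPM) in adults and 1199, 982, 811, 757 and 507 CPM in newborns, with a difference of 1.93 ± 0.25 on the log2 scale (SE; adjusted p = 4.30e-06). Its M-MDSC libraries rose from 241, 277 and 579 CPM to 1184, 954, 1250.4, 1067 and 1352 CPM, with a difference of 1.66 ± 0.32 on the log2 scale (SE; adjusted p = 6.92e-04). Gapdh, often used as a reference gene, was thus 3.82-fold and 3.17-fold higher in newborns. Pgk1, phosphoglycerate kinase, was at 13.9 to 80.4 CPM (median 36.1 CPM) in adult and 148, 155, 197, 166 and 146 CPM in newborn PMN-MDSC, with a difference of 1.96 ± 0.38 on the log2 scale (SE; adjusted p = 3.22e-04). In M-MDSC the Pgk1 libraries were at 41.7, 15.8 and 95.3 CPM and 167, 194, 187, 164 and 147 CPM, with a difference of 1.73 ± 0.48 on the log2 scale (SE; adjusted p = 0.0103), and 2.69 without adult replicate 28.

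Eno1, enolase 1, was at 163 to 313 CPM (median 216 CPM) in adult and 1019.9, 1039, 743, 763 and 616 CPM in newborn PMN-MDSC, with a difference of 1.94 ± 0.15 on the log2 scale (SE; adjusted p = 5.60e-09). Newborn M-MDSC replicate 2 was the highest of its 733, 1071, 933, 540.2 and 628 CPM, above adults at 444, 474 and 515 CPM, with a difference of 0.68 ± 0.18 on the log2 scale (SE; adjusted p = 0.00866). Without adult M-MDSC replicate 1 the call of Eno1 in M-MDSC was lost. Pkm, the pyruvate kinase of most tissues, had the highest level per kb of exon of the members in both newborn and adult M-MDSC and in newborn PMN-MDSC. It rose in PMN-MDSC from 522 to 697 CPM (median 647 CPM) to 2189, 2375, 2114, 2264 and 1746 CPM, with a difference of 1.78 ± 0.14 on the log2 scale (SE; adjusted p = 4.78e-09), and in M-MDSC from 949, 683 and 942 CPM to 1602, 2319, 1665, 1542 and 1794 CPM, with a difference of 1.06 ± 0.17 on the log2 scale (SE; adjusted p = 1.20e-04).

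Pgam1, phosphoglycerate mutase, could not be measured reliably, since 89.0% of the counts of Pgam1 and its processed copy Pgam1-ps2 were assigned to the copy. Pgam1 was at 0 to 26.4 CPM (median 8.61 CPM) in adult and 65.7, 46.7, 37.3, 40.1 and 34.0 CPM in newborn PMN-MDSC, with a difference of 2.25 ± 0.85 on the log2 scale (SE; adjusted p = 0.0368) that was lost under 13 of 31 alternatives. In M-MDSC its libraries ranged over 46.6, 45.2 and 134 CPM in adults and 59.4, 118, 38.9, 0 and 12.6 CPM in newborns. The newborn library at 0 held 18244049 counts in all. The copy itself, singled out after its counts were seen, was at 72.1 ± 13.6 and 371 ± 36.7 CPM (SD, n = 6 and 5) in PMN-MDSC, 2.36 ± 0.13 higher in newborns on the log2 scale (SE; adjusted p = 1.22e-10). In M-MDSC it was at 94.1 ± 7.64 and 349 ± 27.2 CPM, with 1.89 ± 0.17 (adjusted p = 2.29e-07).

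Ldha, the lactate dehydrogenase subunit that favours lactate, rose in PMN-MDSC from 156 to 192 CPM (median 162 CPM) to 496, 553, 532, 598 and 447 CPM, with a difference of 1.64 ± 0.12 on the log2 scale (SE; adjusted p = 1.78e-09). In M-MDSC it rose from 186, 199 and 205 CPM to 296, 429.7, 327, 323 and 337 CPM, with a difference of 0.80 ± 0.14 on the log2 scale (SE; adjusted p = 3.49e-04). Ldhb, the subunit of oxidative tissues, was scarce in adult PMN-MDSC at 0 to 1.46 CPM (median 0.362 CPM), and at 4.38, 4.32, 4.87, 6.18 and 6.38 CPM in newborns, with a difference of 2.61 ± 0.40 on the log2 scale (SE; adjusted p = 2.42e-05). The adult PMN-MDSC mean of Ldhb was 0.110 CPM in batch 1, below the limit of 3 counts, and 1.07 CPM in batch 2. In M-MDSC Ldhb went from 14.3, 18.7 and 28.0 CPM to 38.5, 76.3, 57.0, 54.4 and 42.6 CPM, with a difference of 1.42 ± 0.42 on the log2 scale (SE; adjusted p = 0.0148), a call lost without adult replicate 1. Pdk1, which shuts off pyruvate dehydrogenase and is a HIF-1 target, fell in PMN-MDSC from 41.1 ± 8.99 to 20.0 ± 3.39 CPM, with a difference of -1.11 ± 0.23 on the log2 scale (SE; adjusted p = 6.25e-04). Without the batch 1 partners it was at -0.90 (adjusted p = 0.0570), and in M-MDSC it was at -0.62 ± 0.27 (adjusted p = 0.0915), or -0.91 (adjusted p = 0.0179) without adult replicate 1.

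Gpd1 makes glycerol 3-phosphate in the cytosol, drawing off a glycolytic intermediate. In newborn M-MDSC it had 3 counts in all 5 libraries, 0.0577 CPM pooled, against 103 counts and 4.77 CPM pooled in adults. The newborn level was 1.21% of the adult level, with an exact 95% interval of 0.245% to 3.63% that covers counting error only. Of the 103 adult counts, 93 came from replicate 28, at 5.36 CPM. Adult replicates 1 and 3 held 6 and 4, at 3.29 and 1.66 CPM. The interval takes counts as independent, and adult replicate 28 held 93 counts for Egln3 and for Vegfa as well. The test called the fall of Gpd1 (adjusted p = 0.00247), but not within batch 1. In PMN-MDSC it averaged 6.30 ± 3.45 CPM in adults and 10.4 ± 2.56 CPM in newborns and was not called (adjusted p = 0.368).

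Both enzymes that make NADPH in the oxidative arm of the pentose phosphate pathway rose strongly. G6pdx, glucose 6-phosphate dehydrogenase and the entry to the pathway, was at 104 to 128 CPM (median 112 CPM) in adult PMN-MDSC and 1019, 1093, 1096, 1158 and 930.1 CPM in newborns. That was a 9.26-fold rise, with a difference of 3.21 ± 0.16 on the log2 scale (SE; adjusted p = 2.65e-11), far beyond the spread of either group. In M-MDSC it rose from 171, 232 and 263 CPM to 379, 592, 513, 312 and 437 CPM, with a difference of 1.00 ± 0.19 on the log2 scale (SE; adjusted p = 5.60e-04). This M-MDSC call of G6pdx was lost in a fit of those libraries alone, at 0.94 (adjusted p = 0.0520), and within batch 2, at 0.58 (0.162). Pgd, 6-phosphogluconate dehydrogenase, was at 275 to 306 CPM (median 298 CPM) and 1499, 1699, 1492, 1698 and 1255 CPM in PMN-MDSC, with a difference of 2.37 ± 0.16 on the log2 scale (SE; adjusted p = 7.84e-10). Its M-MDSC libraries were at 295, 310.1 and 547 CPM and 708, 1001, 829, 672 and 796 CPM, with a difference of 1.06 ± 0.19 on the log2 scale (SE; adjusted p = 3.88e-04). Pgls, the lactonase between the 2 dehydrogenases, was at 37.5 ± 9.88 and 93.8 ± 2.12 CPM in PMN-MDSC, with a difference of 1.32 ± 0.24 on the log2 scale (SE; adjusted p = 1.57e-04), and was not called in M-MDSC at 0.40 ± 0.29, although it was without adult replicate 28, at 0.86 (adjusted p = 0.0389).

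In the non-oxidative arm the transketolase Tkt, which moves 2-carbon units between sugars, had the largest rise after Adpgk in PMN-MDSC. Its 163 to 197 CPM (median 186 CPM) in adult PMN-MDSC became 2157, 2644, 2133, 2557 and 1912 CPM in newborns, a 12.5-fold rise with a difference of 3.64 ± 0.23 on the log2 scale (SE; adjusted p = 5.25e-10). In M-MDSC it went from 273, 483 and 711 CPM to 837, 1663, 1159, 747 and 870.1 CPM, with a difference of 1.09 ± 0.27 on the log2 scale (SE; adjusted p = 0.00536), where adult replicate 28 nearly reached the lowest newborn. The M-MDSC call of Tkt was lost in a fit of those libraries alone, at 1.05 (adjusted p = 0.118), and within batch 2, at 0.25 (0.494). Taldo1, transaldolase, rose less, from 236 to 342 CPM (median 297 CPM) to 535, 638, 549, 622 and 462 CPM in PMN-MDSC, with a difference of 0.96 ± 0.17 on the log2 scale (SE; adjusted p = 1.25e-04). In M-MDSC the Taldo1 groups overlapped, at 215, 268 and 350.0 CPM and 360.3, 543, 378, 294 and 303 CPM, and the value was 0.42 ± 0.21 (adjusted p = 0.139), or 0.71 (adjusted p = 0.02) without adult replicate 28.

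Rpia, which interconverts ribulose and ribose 5-phosphate, was at 47.8 ± 4.86 and 68.8 ± 5.36 CPM in PMN-MDSC, with a difference of 0.55 ± 0.18 on the log2 scale (SE; adjusted p = 0.0155) that was lost under 7 of 31 alternatives, among them without newborn replicate 38. In M-MDSC it rose from 30.7 ± 13.8 to 73.0 ± 15.8 CPM, with a difference of 1.30 ± 0.23 on the log2 scale (SE; adjusted p = 2.98e-04). Rpe, the epimerase of the same sugar phosphates, rose in PMN-MDSC from 34.2 ± 6.17 to 75.7 ± 4.06 CPM (1.14 ± 0.25, adjusted p = 9.17e-04) and was at 0.68 ± 0.31 in M-MDSC (adjusted p = 0.115), or 0.87 (adjusted p = 0.00575) without newborn replicate 2.

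The hypoxia genes did not follow the glycolytic enzymes. Hif1a was at 109 to 241 CPM (median 143 CPM) in adult and 43.2, 42.8, 49.3, 50.0 and 50.5 CPM in newborn PMN-MDSC, with a difference of -1.81 ± 0.37 on the log2 scale (SE; adjusted p = 5.17e-04) and no overlap. In M-MDSC the adult libraries were spread over 170.0, 83.8 and 24.0 CPM and the newborn libraries over 49.7, 25.7, 50.0, 75.5 and 51.0 CPM, with a value of -0.83 ± 0.44 (adjusted p = 0.171). Hif1a was called lower within batch 1. Within batch 2 its value was 1.44 (adjusted p = 0.0282), from 1 adult library, replicate 28, against 2 newborn libraries, with the adult library assumed to vary like the other groups. Without that library Hif1a was at -1.45 (adjusted p = 0.0033). Egln1, the main prolyl hydroxylase that marks HIF-1α for destruction, rose in PMN-MDSC from 20.5 ± 1.48 to 41.3 ± 2.71 CPM, with a difference of 1.04 ± 0.15 on the log2 scale (SE; adjusted p = 1.36e-05). In M-MDSC its value was 0.51 ± 0.18 (adjusted p = 0.0416), a call lost under 23 of 31 alternatives.

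Egln3, the hydroxylase that HIF itself induces, Bnip3, a mitophagy receptor, and the growth factor Vegfa are known HIF-1 targets, and none was called with age in either cell type with all libraries. In PMN-MDSC their values were 0.19 ± 0.73, -0.09 ± 0.60 and 0.09 ± 0.51. Vegfa varied widely between adult libraries, with a coefficient of variation of 74.8% in PMN-MDSC and 124% in M-MDSC. Its adult PMN-MDSC level was highest in replicates 1 and 32, at 157 and 145 CPM, and lowest in replicates 3 and 34, at 25.2 and 31.1 CPM, and in adult M-MDSC Vegfa was at 72.4, 11.6 and 5.36 CPM. Without adult M-MDSC replicate 1, the high library, Vegfa was called higher in newborn M-MDSC, at 1.92 (adjusted p = 0.0394). Adult PMN-MDSC replicates 1 and 32 also held the highest levels of that group for Hif1a, Slc2a1, Slc2a6, Pfkp and Pfkfb3.

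**Figure D2:**
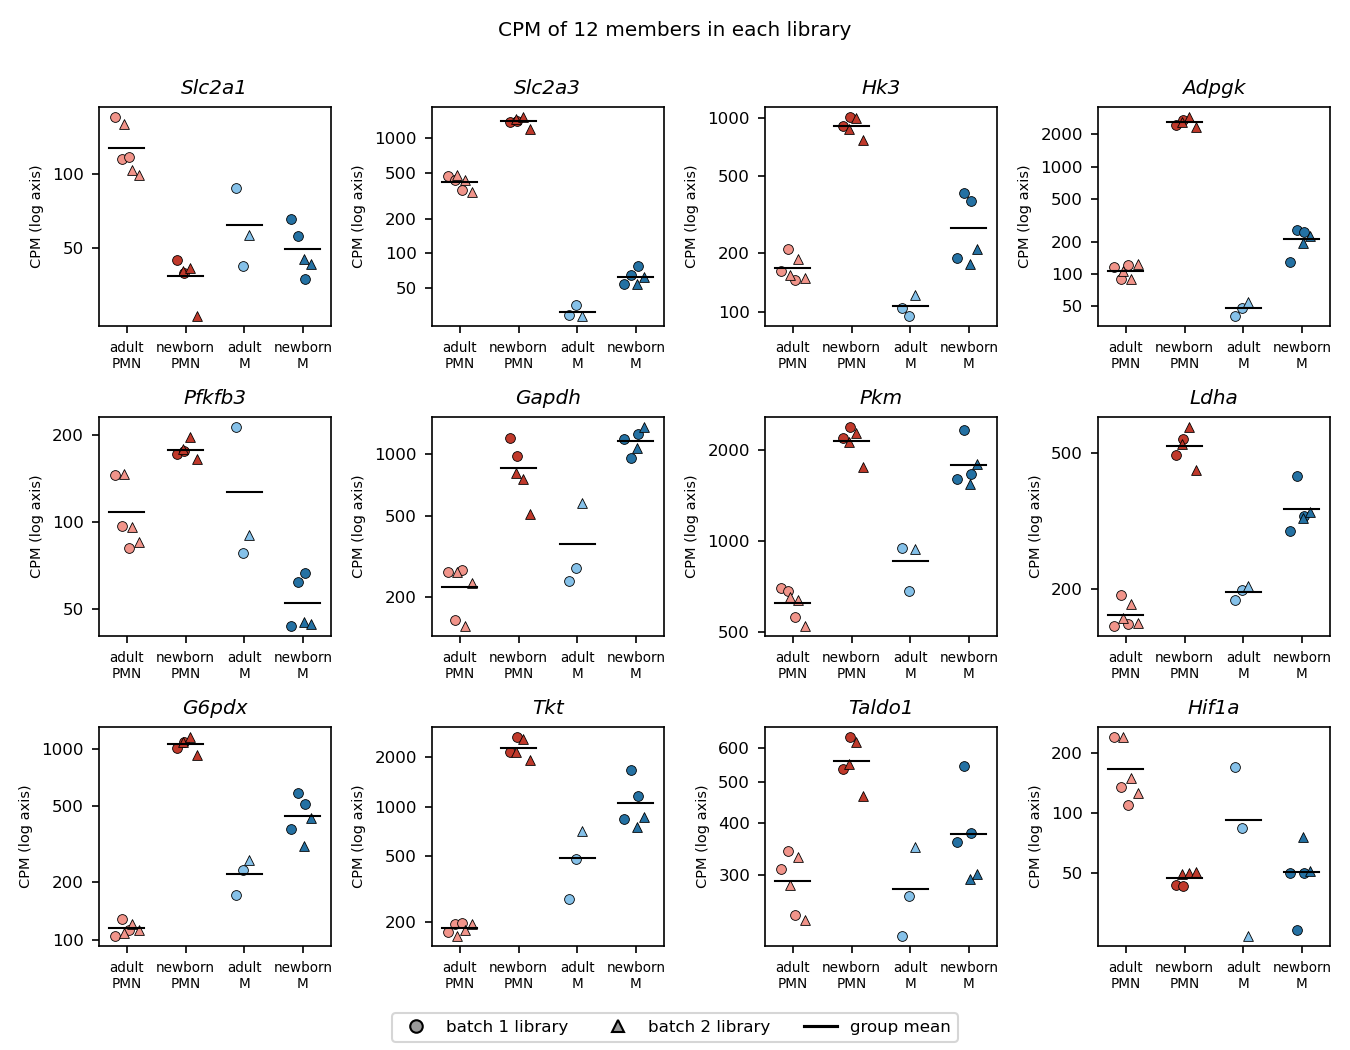
CPM in each library (y axis, log scale) of 12 members in the 4 groups (x axis), with circles for batch 1, triangles for batch 2 and a line for the group mean. For Slc2a3, Hk3, Adpgk, G6pdx and Tkt the newborn PMN-MDSC libraries stand clear of the other 3 groups, while the means of Slc2a1 and Hif1a are highest in adult PMN-MDSC.

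The age effect itself differed between the cell types for 15 members, 14 with a lower log2 age effect in M-MDSC than in PMN-MDSC and 1 with a higher one, beside 11.5% and 6.61% of all genes. The median difference of the members was -0.73, against -0.06 over all genes. Largest among well-measured genes were Tkt at -2.55 ± 0.34 (adjusted p = 4.65e-05), Adpgk at -2.46 ± 0.25 (3.05e-06), G6pdx at -2.21 ± 0.23 (5.08e-06) and Pfkfb3 at -1.99 ± 0.36 (6.85e-04). Slc2a1, at 1.39 ± 0.32 (adjusted p = 0.00530), fell in PMN-MDSC with a smaller, uncalled difference in M-MDSC. Gapdh, Pgk1 and Tpi1 had differences of -0.27 ± 0.39, -0.23 ± 0.59 and -0.47 ± 0.31, which did not pass the test. Members with a lower difference numbered 4 within batch 1, 19 within batch 2 and 10 without the batch 1 partners, and those with a higher one 0, 3 and 0, or 5 without adult M-MDSC replicate 1. The difference of Slc2a3 was not called without adult M-MDSC replicate 3, nor that of Pkm without replicate 28. With upper-quartile scaling the split of all genes went from 856 and 1488 to 1157 and 1134.

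M-MDSC and PMN-MDSC of the same age differed in their levels of the pathway genes. In adults 12 members were higher in M-MDSC and 7 lower, beside 16.7% and 12.5% of all genes, with a median of 0.22 against -0.13. In newborns 4 were higher and 17 lower, beside 18.7% and 23.4% of all genes, with a median of -0.42 against -0.13. The adult counts were 7 and 4 without the batch 1 partners, 3 and 4 within batch 1, and the lower count was 4 without adult M-MDSC replicate 3. The newborn counts were 4 and 15, and 2 and 12. These comparisons share libraries with the age comparisons above. G6pdx was higher in M-MDSC of adults at 0.95 ± 0.17 (adjusted p = 4.12e-04) and lower in M-MDSC of newborns at -1.26 ± 0.16 (5.26e-06). Tkt likewise went from 1.42 ± 0.25 (2.65e-04) to -1.13 ± 0.23 (7.15e-04), and Hk1 from 0.58 ± 0.17 (0.0154) to -0.95 ± 0.15 (7.61e-05). In adults Hk1 was not called without M-MDSC replicate 3 or 28, and Tkt was at 0.91 (adjusted p = 0.0152) without replicate 28.

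Other members kept their direction. Slc2a3 was 13.6-fold lower in M-MDSC of adults and 22.7-fold lower in M-MDSC of newborns (-3.77 ± 0.19 and -4.50 ± 0.15; adjusted p = 8.97e-11 and 6.33e-13). Ldhb, with 1 count in all 3 batch 1 libraries of adult PMN-MDSC, was the reverse, 25.6-fold and 11.3-fold higher in M-MDSC (4.68 ± 0.44 and 3.49 ± 0.39; adjusted p = 2.19e-07 and 1.01e-06). Slc16a3 was lower in M-MDSC at both ages, at -1.57 ± 0.22 and -1.65 ± 0.19 (adjusted p = 2.98e-05 and 1.34e-06), and so was Adpgk, at -1.16 ± 0.20 and -3.63 ± 0.18 (2.50e-04 and 6.84e-11). Tpi1 was higher in M-MDSC at both ages, at 1.33 ± 0.23 and 0.86 ± 0.21 (2.19e-04 and 0.00275).

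**Figure D3:**
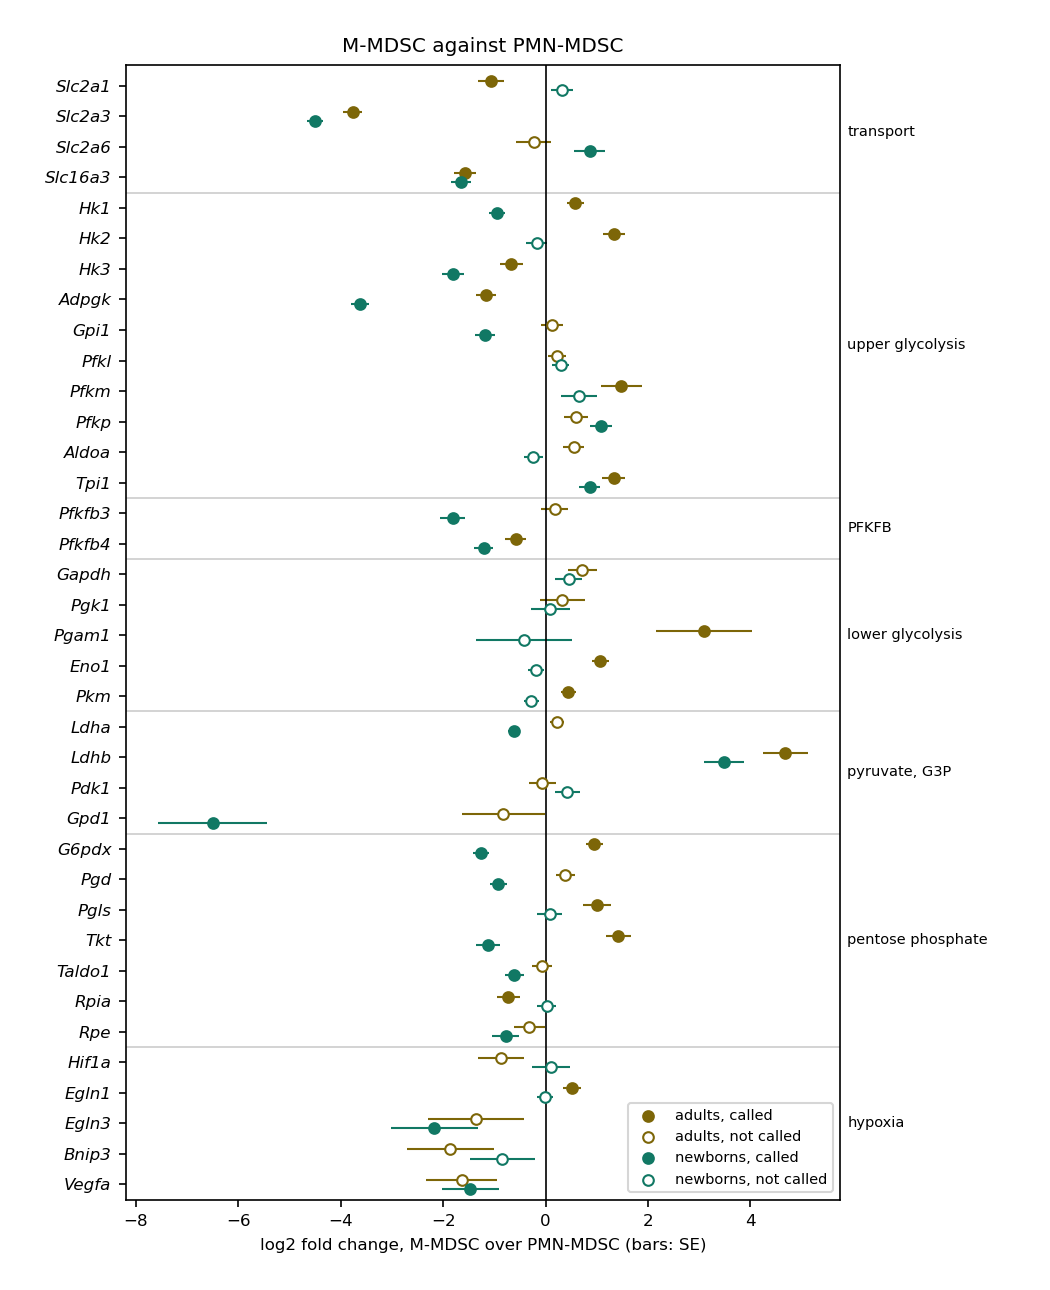
Log2 fold change of M-MDSC over PMN-MDSC (x axis) for the 37 tested members (y axis, grouped by role) in adults (brown) and newborns (green), with bars for the SE and filled points for an adjusted p under 0.05. Slc2a3 is far to the left and Ldhb far to the right at both ages, and G6pdx, Tkt and Hk1 lie on opposite sides of 0.

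Slc2a3 and Adpgk, both far lower in newborn M-MDSC, were set beside neutrophil genes. In newborns the M-MDSC mean of Slc2a3 was 4.47% and that of Adpgk 8.06% of the PMN-MDSC mean. The 12 genes of the neutrophil list ran from 0.411% for Ly6g to 67.6% for Cxcr4, with S100a8 at 8.47%, Camp at 15.2%, Itgam at 20.5% and Csf3r at 32.6%. G6pdx was at 42.2%, Tkt at 46.3% and Pkm at 83.5% of the newborn PMN-MDSC mean. In adults Slc2a3 was at 7.42% and Adpgk at 44.2%, and the neutrophil genes ran from 1.07% for Mmp9 to 119% for Itgam. The part of neutrophil RNA in the M-MDSC levels was not tested.

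The make-up of isozyme families, in shares of the family's summed CPM per kb of exon, is given as a description without a test. Among the 3 glucose transporters Slc2a3 held 42.9 ± 4.09% in adult and 91.6 ± 1.31% in newborn PMN-MDSC (SD, n = 6 and 5). In M-MDSC it held 8.18 ± 3.63% and 24.5 ± 5.40% (n = 3 and 5), and the leading form in adults was Slc2a6 at 61.4 ± 7.64%. Hk3 made up most of the hexokinase signal in PMN-MDSC, 73.9 ± 2.12% in adults and 79.4 ± 0.60% in newborns. In M-MDSC it made up 45.5 ± 7.61% and 59.0 ± 6.41%, and Hk2 39.9 ± 10.3% and 28.4 ± 5.65%. The phosphofructokinase signal stayed at a like total in PMN-MDSC, 13.8 CPM per kb at both ages, while the share of Pfkp went from 44.4 ± 5.35% to 22.6 ± 0.91% and that of Pfkl from 48.9 ± 2.73% to 62.8 ± 3.30%. Ldhb held 0.719 ± 0.812% and 2.08 ± 0.504% of lactate dehydrogenase in PMN-MDSC, and 17.6 ± 4.32% and 24.6 ± 3.02% in M-MDSC.

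**Figure D4:**
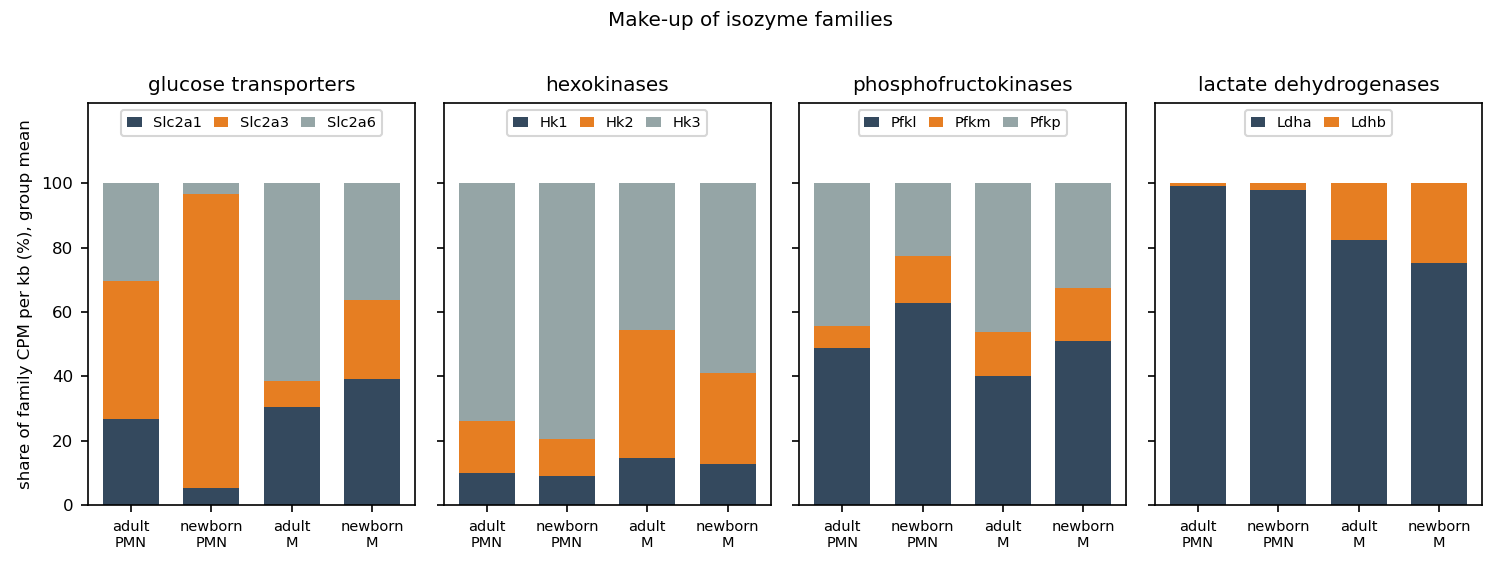
Group mean share (y axis, percent of the family's CPM per kb of exon) of each form of 4 isozyme families in the 4 groups (x axis). Slc2a3 fills 91.6% of the transporter bar of newborn PMN-MDSC, and Ldhb is visible mainly in M-MDSC, at 17.6% and 24.6%.

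Compared per length, the levels of consecutive enzymes were uneven. In newborn PMN-MDSC the highest were Pkm at 427 ± 47.9 CPM per kb of exon, Aldoa at 349.9 ± 50.7, G6pdx at 344 ± 28.4, Tkt at 310.1 ± 42.0 and Gpi1 at 307 ± 20.3 (SD, n = 5). Pkm and Aldoa overlap within their SDs, and so do the last 4 of these. In adult PMN-MDSC the highest were Taldo1 at 134 ± 20.8, Pkm at 125 ± 13.9 and Aldoa at 108 ± 7.17 CPM per kb (n = 6), with G6pdx at 37.2 ± 2.89 and Tkt at 24.9 ± 1.83. Summed over its 3 forms, phosphofructokinase was at 13.8 CPM per kb in both, below every other step of glycolysis except Pgam1 in adults, whose level is uncertain. In newborn M-MDSC Pkm, at 357 ± 62.5 CPM per kb, was followed by Aldoa at 303 ± 90.5 and Gapdh at 281 ± 37.6. Lengths are those of all annotated exons joined, so a gene with long unused exons is understated.

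**Figure D5:**
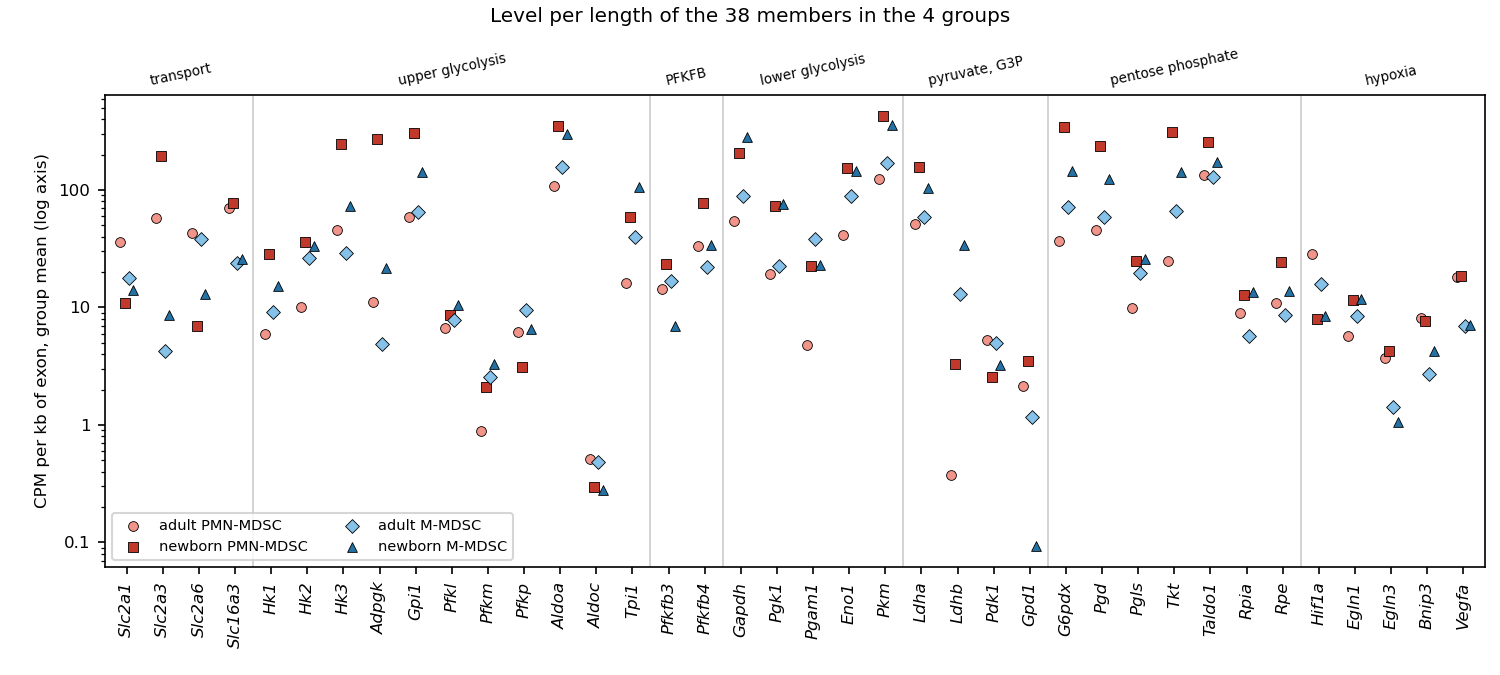
Group mean level of the 38 members in CPM per kb of exon (y axis, log scale), ordered by role along the x axis, in adult and newborn PMN-MDSC (light and dark red) and adult and newborn M-MDSC (light and dark blue). G6pdx, Tkt, Adpgk and Hk3 lie at 247 to 344 CPM per kb in newborn PMN-MDSC, and each phosphofructokinase is at or below 10.6 in all 4 groups.

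Genes around the pathways moved as well, and their changes below are on the log2 scale. Of the glycogen list, 11 of 19 tested genes rose and 5 fell in PMN-MDSC, and 7 rose and 0 fell in M-MDSC. Over all genes tested the shares called higher and lower were 27.1% and 20.5% in PMN-MDSC and 15.9% and 14.3% in M-MDSC, and the counts of each list around the pathways stand beside these shares without a test of the list. Pygl, the glycogen phosphorylase of liver and leukocytes, rose in PMN-MDSC from 398 ± 59.4 to 2099 ± 202 CPM, or by 2.40 ± 0.14 on the log2 scale (SE; adjusted p = 1.15e-10). Gyg, which primes glycogen, rose by 2.52 and glycogen synthase Gys1 by 2.15. The genes that rose thus included some of synthesis and some of breakdown, and the 5 that fell are not named here. In M-MDSC Pygl rose by 1.78, Pgm1 by 1.16 and Gys1 by 1.14.

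Of the further pentose phosphate and NADPH genes, 7 of 14 rose and 2 fell in PMN-MDSC, and 5 rose and 1 fell in M-MDSC. The shares of all genes called higher and lower were 27.1% and 20.5%, and 15.9% and 14.3%. In PMN-MDSC the glutaredoxin Glrx rose by 3.11 (adjusted p = 3.27e-10), the endoplasmic reticulum dehydrogenase H6pd by 2.76, the cytosolic NADPH source Idh1 by 1.81, the glutathione reductase Gsr by 1.41 and the NAD kinase Nadk by 1.39. Glrx rose by 1.69 in M-MDSC, where Nadk fell by 0.64. Among the 6 tested sugar and lactate transport genes, too few to read against those shares, 3 rose and 0 fell in each cell type, namely Slc2a9, a urate and hexose transporter (3.27 in PMN-MDSC and 1.49 in M-MDSC), Emb (0.72 and 1.13) and Bsg (0.91 and 0.80), the last being the chaperone of the lactate carriers.

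Of the genes for entry of pyruvate and reducing power into mitochondria, 8 of 19 rose and 1 fell in PMN-MDSC, and 6 rose and 0 fell in M-MDSC, beside 27.1% and 20.5%, and 15.9% and 14.3%, of all genes. In PMN-MDSC Pdk3, another kinase of pyruvate dehydrogenase, rose by 2.20 (adjusted p = 2.09e-08) where Pdk1 fell, and the pyruvate carrier subunit Mpc2 rose by 2.00 and the mitochondrial malate dehydrogenase Mdh2 by 1.16. Of the other glycolytic isozymes, 4 of 11 rose and 0 fell in PMN-MDSC, among them Pklr, the pyruvate kinase of liver and red cells, and Bpgm, the red cell enzyme that makes 2,3-bisphosphoglycerate (4.38 and 1.32). In M-MDSC 3 of these isozymes rose and 2 fell. With 11 genes tested, the isozymes called higher were not far from the share of all genes in PMN-MDSC. The erythroid markers given above moved with Pklr and Bpgm in PMN-MDSC, and their part was not tested.

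Of the further hypoxia response genes, 8 of 21 rose and 4 fell in PMN-MDSC, with a median of -0.01 beside -0.05 for all genes, and 5 rose and 2 fell in M-MDSC, with a median of -0.07 beside 0.01. These counts were not far from the shares of all genes, 27.1% and 20.5% in PMN-MDSC and 15.9% and 14.3% in M-MDSC, and are no result about the list. Ero1l, an oxidase of protein folding that hypoxia induces, rose by 2.87 in PMN-MDSC (adjusted p = 4.95e-11) and 1.52 in M-MDSC. Mxi1, a Myc antagonist, rose by 2.20 and 1.67. Ddit4, an mTOR inhibitor induced by hypoxia and glucocorticoids, was lower in newborns, at -1.93 and -4.31.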

How the data were processed

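The authors deposited estimated counts per gene for 19 libraries of 50 base single-end reads, made from total RNA. RSEM 1.2.3, DESeq2 and the build mm10 are named in the submitters' processing notes. Counts were rounded to whole numbers. Of 38887 gene identifiers 96.6% matched GENCODE M21, the source of exon lengths. Per the labels, libraries fell into 4 groups and 2 batches.

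All 19 libraries were fitted with edgeR 4.0.16 (limma 3.58.1, R 4.3.3) by group and batch with 14 residual degrees of freedom, TMM scaling and the filterByExpr filter. The quasi-likelihood test was adjusted by the Benjamini-Hochberg method over 12943 genes, for 5 comparisons. The procedure was tested on simulated data with few changed genes, as many up as down. Such data could not test the dependence on scaling described below. CPM are counts over TMM-scaled totals, and the SE is the log2 fold change over the square root of F. The members and lists were chosen with earlier results of these data known. Every member could be named. Libraries were given singly for at most 14 members called at an absolute log2 fold change of 1 or more and 10 CPM, and for 15 further members, and of each further list at most 5 called genes were named. Depth sets the precision: the limit of 3 counts covers counting error only. Alternatives varied the batch term, scaling, filter, tool (DESeq2 1.42.0), groups and libraries. Intervals are exact binomial (Clopper-Pearson). Promoter windows are RefSeq's.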

Additional observations from a re-analysis of the deposited data

Results flagged for a closer look

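Newborn PMN-MDSC replicate 39 stood apart for 3 transporters, with a gap to the other 4 libraries beyond Dixon's 95% limit: Slc2a1 at 26.5 CPM, Slc2a6 at 11.0 CPM and Slc16a3 at 308 CPM. These were 3 of 111 groups of libraries checked, where chance marks about 1 in 20. All 3 values were low, and the calls of Slc2a1 and Slc2a6 held without this library.

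The age effect differed between the cell types by the test of the difference itself for 15 members. As M-MDSC minus PMN-MDSC on the log2 scale, Slc2a1 differed by 1.39. The other 14 were negative: Gpd1 at -5.68, Tkt at -2.55, Adpgk at -2.46, G6pdx at -2.21, Pfkfb3 at -1.99, Hk1 at -1.53, Hk2 at -1.51, Pgd at -1.31, Gpi1 at -1.31, Eno1 at -1.26, Hk3 at -1.14, Ldha at -0.84, Slc2a3 at -0.73 and Pkm at -0.72. All libraries of both cell types enter each value. The value of Gpd1 rests on 3 counts in newborn M-MDSC and is no measure of size.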

How the results depend on the processing

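Counts of members called were recomputed under 31 alternatives for each comparison (30 for the difference of the age effects). The counts in newborn against adult PMN-MDSC stayed within 1.5 times of those reported under all 31, at 22 to 27 members higher and 4 to 5 lower. Of the members higher in newborn M-MDSC, 11 were called with the compared groups only and 9 with batch 2 only. Hif1a, not called in M-MDSC with all libraries, was at 1.44 with batch 2 only, a fit whose adult arm is 1 library assumed to vary like the other groups. For the difference of the age effects, the members higher numbered 2 with a batch coefficient per cell type, DESeq2 size factors, upper-quartile scaling or the DESeq2 Wald test, 3 with batch 2 only, 0 with batch 1 only, without the batch 1 partners or with the replicate block, and 1 to 5 with single libraries left out (5 without adult M-MDSC replicate 1), and the members lower numbered 4 with batch 1 only and 6 with the block. For M-MDSC against PMN-MDSC in adults, members higher numbered 3 with batch 1 only, 7 without the partners and 6 with the block, and members lower 4 under each of these 3 and under a batch coefficient per cell type, and 4 to 8 with single libraries left out (4 without adult M-MDSC replicate 3). In newborns members higher numbered 2 with batch 1 only, batch 2 only and the block. The block was fitted within batch 1. Same-numbered libraries correlated at r = -0.170 to 0.315 and others at -0.315 to 0.197. The highest values were those of adult PMN-MDSC with adult M-MDSC, at 0.313 for replicates 1 and 0.315 for replicates 3. Adult M-MDSC and newborn PMN-MDSC had 2 libraries each in batch 1, so values that involve them came as mirror images of opposite sign. Whether the numbers pair the samples therefore cannot be decided from these values. The cause of the shifts in counts was not tested, though single batches hold fewer libraries.

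Scaling moved the median of all genes in newborn against adult PMN-MDSC by -0.17 with DESeq2 size factors and by -0.24 with upper quartiles. The split of all genes called higher and lower, 3514 and 2657 as reported, became 2982 and 3302, and 2756 and 3552. With the DESeq2 Wald test it was 3189 and 3799. In the difference of the age effects upper quartiles moved the median by 0.17 and the split from 856 and 1488 to 1157 and 1134, and in newborn M-MDSC against PMN-MDSC by 0.15 and from 2414 and 3023 to 2934 and 2528. With the DESeq2 Wald test the splits were 1476 and 1641 for the difference and 2167 and 3018 in adults (2158 and 1614 as reported).

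Other counts of all genes that moved by over 1.5 times fell mostly in fits with fewer libraries. Higher and lower in newborn PMN-MDSC were 2216 and 1544 with batch 1 only and 2151 and 1512 with the block, and lower ones 1209 without the partners and 4838 with the compared groups only. In newborn M-MDSC 665 were higher and 602 lower with the compared groups only. For the difference the counts were 146 and 262 with batch 1 only, 215 and 753 without the partners and 224 and 385 with the block, and 2465 were higher with batch 2 only. Between cell types of adults they were 779 and 589 with batch 1 only, 879 and 709 with the block and 1334 and 916 without adult M-MDSC replicate 28; higher ones numbered 1166 without the partners, and lower ones 4367 with batch 2 only and 2846 without adult M-MDSC replicate 1. In newborns they were 1406 and 1825 with batch 1 only, and higher ones 1233 without the partners and 1556 with the block.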
